A study of Mus musculus with 16 samples.

Results

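The genes described here are 10 immediate early and AP-1 partner genes: Fos, Fosb, Fosl1, Fosl2, Junb, Jund, Atf3, Egr1, Ier3 and Myc. They were taken as the probe sets that the array platform's table assigns to 1 of these symbols alone, and where a gene had more than 1 such probe set, the brightest on average was read. That gave 10 of the 18193 genes with a value, and all 10 were among the 14545 genes bright enough to test (mean log2 signal of at least 5.37, the 30th percentile of probe sets). RNA came from the sciatic nerve of mice aged 8 to 12 weeks, of strain C57BL/6 (labelled wild type) or C57BL/6 OlaHsd-Wlds (labelled WldS mutant, called WldS here). The left nerve received a microcrush at the thigh, and a 4 mm segment lying 1 to 5 mm distal to the crush was taken at day 3, 7 or 14, while day 0 is uninjured nerve. The study used 56 mice per strain, pooled the stumps of a group before extraction, and hybridised 2 arrays per group to Affymetrix whole-genome mouse arrays, which gave 8 groups. The labels call the arrays of a group biological replicates but do not say how many mice or dissections stand behind each pool. Every p-value therefore rests on the spread between the 2 pools of a group, estimated jointly over the 8 groups, and not on a known number of mice. The labels name no substrain for C57BL/6, so the strains may differ by more than the WldS mutation.

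Immediate early genes are transcribed within minutes of a stimulus without new protein synthesis, mostly through serum response factor, ternary complex factors and CREB downstream of MAP kinases. FOS proteins bind DNA as AP-1 only in a dimer with a JUN protein, while JUN proteins and ATF3 can also pair among themselves and with one another. In crushed nerve, Schwann cells of the distal stump leave their myelinating state and activate JUN, macrophages enter, and cells divide. The WldS mutation produces a fusion protein containing the NAD-synthesising enzyme NMNAT1 that delays degeneration of the cut axons, so the stump of a WldS nerve keeps its axons for longer.

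The bases upstream of 4 of the genes are shown because these genes respond to injury in contrasting ways: Fos rose furthest, Fosl2 rose further from day 3 to day 7 in C57BL/6, Junb rose by nearly the same amount in both strains at day 3, and the pools of Atf3 lay far apart between strains on every injured day. They are the 250 bases before the annotated start, 5′ to 3′ on the gene's strand, from RefSeq on GRCm38.p6: Fos at chr12:85473640-85473889 (plus strand), Fosl2 at chr5:32136222-32136471 (plus), Junb at chr8:84978749-84978998 (minus) and Atf3 at chr1:191183334-191183583 (minus). Capitals mark matches to a searched motif.
Fos: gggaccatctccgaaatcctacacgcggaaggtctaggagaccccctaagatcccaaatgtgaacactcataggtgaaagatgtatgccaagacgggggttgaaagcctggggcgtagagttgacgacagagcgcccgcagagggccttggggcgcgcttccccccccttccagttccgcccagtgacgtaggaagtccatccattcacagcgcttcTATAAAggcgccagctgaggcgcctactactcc
Fosl2: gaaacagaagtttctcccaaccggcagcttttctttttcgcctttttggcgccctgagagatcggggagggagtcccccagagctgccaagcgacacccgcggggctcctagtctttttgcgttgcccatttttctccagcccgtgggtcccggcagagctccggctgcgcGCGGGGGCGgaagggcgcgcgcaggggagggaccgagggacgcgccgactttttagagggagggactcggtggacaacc
Junb: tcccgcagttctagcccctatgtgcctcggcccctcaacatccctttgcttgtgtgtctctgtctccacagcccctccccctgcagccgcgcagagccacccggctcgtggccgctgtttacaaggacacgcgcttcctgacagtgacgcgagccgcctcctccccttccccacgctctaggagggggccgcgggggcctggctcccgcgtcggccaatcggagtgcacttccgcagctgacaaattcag
Atf3: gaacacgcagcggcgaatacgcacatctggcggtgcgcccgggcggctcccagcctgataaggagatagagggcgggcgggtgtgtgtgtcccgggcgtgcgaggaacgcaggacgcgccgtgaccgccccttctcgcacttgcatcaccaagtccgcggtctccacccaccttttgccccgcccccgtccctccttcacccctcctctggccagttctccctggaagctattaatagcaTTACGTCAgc
A promoter window was used for 7 of the 10 genes, from 250 bases before to 50 after the start, and Fosl1, Myc and Egr1 were not searched. Of 7 motifs searched on both strands, the AP-1 site TGANTCA, the cyclic AMP element TGACGTCA, the CArG box of serum response factor and the E box CACGTG were not in any of the 7 windows. They occur in 7.81%, 1.79%, 1.63% and 7.15% of all 32851 promoters of that length. The ATF variant TNACGTCA, which includes the cyclic AMP element and occurs in 2.93% of promoters, was in the window of Atf3 alone, 10 to 3 bases before the start. The EGR site GCGGGGGCG, in 2.91% of promoters, was in Fosl2 (79 to 71 bases before the start) and Fosb. TATAAA, in 13.6%, was in Fos (33 to 28 bases before the start) and in Junb at the first 6 bases after the annotated start, outside the stretch printed above. These matches describe the letters of the windows and nothing more.

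On 2 arrays, the first WldS day 0 pool and the second WldS day 14 pool, the log2 difference of 3′ over 5′ control probe sets, averaged over actin and Gapdh and a sign of RNA quality, was 3.81 and 3.23, against 1.63 to 2.46 on the other 14. Without both, 5 calls of the 10 genes ended: Egr1 in WldS at day 7 (0.66, adjusted p = 0.117) and day 14 (0.60, adjusted p = 0.269), Myc in WldS at day 14 (0.47, adjusted p = 0.1), and the strain differences in rise of Ier3 at day 3 (-0.72, adjusted p = 0.0637) and Atf3 at day 14 (-0.74, adjusted p = 0.136). Calls were gained under the same setting for Fosb in WldS at day 7 (0.63), Fosl1 in C57BL/6 at day 7 (0.64) and Fosl2 between strains at day 3 (-0.48). The second WldS day 0 pool stood apart in skeletal muscle markers: the summed linear signal of 10 of them was 1882 there, against 395 to 708 on the other 15 arrays, and every WldS change from day 0 uses this pool. Without it, the WldS calls of Egr1 ended at day 7 (0.69, adjusted p = 0.079) and day 14 (0.71, adjusted p = 0.103). WldS calls were gained for Fosl1 at day 7 (0.73, adjusted p = 0.0462) and Junb at day 14 (0.70, adjusted p = 0.0197), and strain differences in rise for Fosl2 at day 3 (-0.76, adjusted p = 0.0297) and day 14 (-0.91, adjusted p = 0.0355). The part of muscle RNA in these values was not tested.

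In C57BL/6 nerve, 9 of the 10 genes were higher at day 3 than at day 0, 7 at day 7 and 6 at day 14, with none lower. Of all genes tested, 22.6% were called higher and 18.4% lower at day 3 (41% in all), 19.6% and 16.4% at day 7 (36.1%), and 17.1% and 16.7% at day 14 (33.7%). A gene was called at a Benjamini-Hochberg adjusted p below 0.05 in limma, over all genes tested. The median log2 difference of the 10 genes was 1.29 at day 3, 0.66 at day 7 and 0.72 at day 14, beside medians of 0.02, 0.02 and 0.00 over all genes. In WldS nerve 5 of the 10 were higher at each of the 3 days, with none lower, beside 20.8% of all genes called higher and 15.2% lower at day 3 (36%), 21.9% and 13.3% at day 7 (35.2%), and 12.7% and 8.56% at day 14 (21.3%). The WldS medians of the 10 were 0.40, 0.55 and 0.49, beside -0.02, 0.01 and 0.01 over all genes. Fos, Fosl2 and Myc were called higher at all 3 days in both strains. The share of all genes called higher on all of these days in both strains is not given here.

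**Figure D1:**
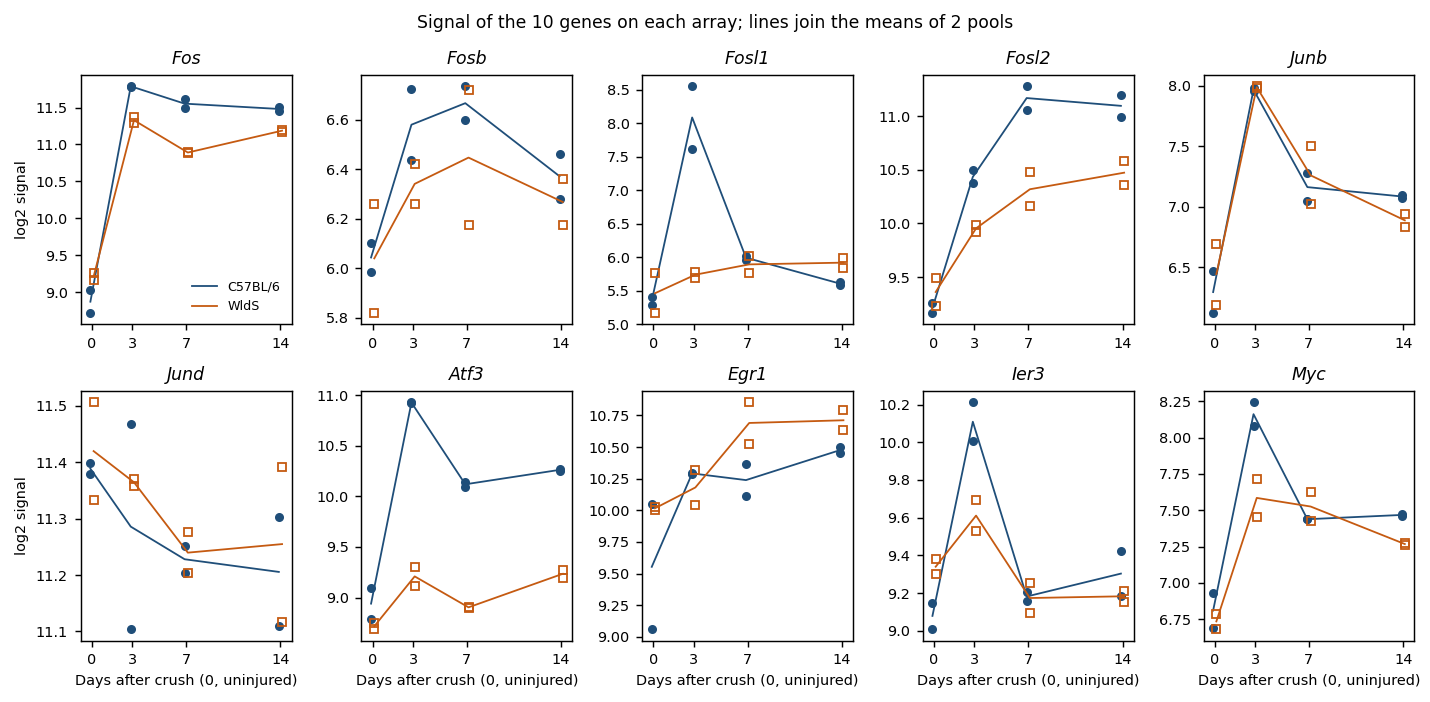
Log2 signal of each of the 10 genes (vertical axis, its own range per panel) against days after crush (horizontal axis), with 1 point per array and lines through the means of 2 pools, C57BL/6 as filled circles and WldS as open squares. Atf3, Fos and Fosl2 lie higher in C57BL/6 than in WldS on every injured day, though Fos at day 14 and Fosl2 at day 3 were not called between strains. Fosl1 is high only in the 2 C57BL/6 pools of day 3, and the Junb lines of the strains nearly coincide through day 3.

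Fos encodes the founding FOS protein, which activates transcription with a JUN partner. In C57BL/6 its log2 signals were 9.02 and 8.72 at day 0, 11.79 and 11.78 at day 3, 11.49 and 11.62 at day 7, and 11.46 and 11.50 at day 14. Every injured pool lay above both uninjured ones, and the day 3 rise of 2.92 ± 0.11 (log2 difference ± SE, n = 2 pools per group, adjusted p = 2.11e-10) is a 7.55-fold higher signal. By size of log2 difference Fos ranked 79 of the 14545 genes in that comparison. In WldS the signals were 9.17 and 9.25 at day 0, 11.37 and 11.29 at day 3, 10.89 and 10.89 at day 7, and 11.17 and 11.20 at day 14. Here the rise at day 3 was 2.12 ± 0.11, a 4.34-fold higher signal. Ordered by mean, all 3 injured C57BL/6 groups stood above all 3 injured WldS groups without overlap, and only days 7 and 14 of C57BL/6 overlapped among neighbours in that order. At day 14, however, limma called neither the strain difference (-0.29 ± 0.11, adjusted p = 0.145) nor the difference in rise (-0.63 ± 0.16, adjusted p = 0.0717).

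Fosb encodes a close relative of FOS that also activates transcription, and its changes were small. C57BL/6 pools read 6.10 and 5.98 at day 0, 6.44 and 6.72 at day 3, 6.74 and 6.60 at day 7, and 6.28 and 6.46 at day 14. The difference from day 0 was 0.54 ± 0.18 at day 3 (adjusted p = 0.0302) and 0.62 ± 0.18 at day 7 (adjusted p = 0.0162). Neither call outlasted the loss of single pools: at day 3 the adjusted p was 0.0745 without the first C57BL/6 day 0 pool, 0.137 without the second and 0.208 without the second day 3 pool, and at day 7 it was 0.0501, 0.092 and 0.107 without either day 0 pool or the first day 7 pool. WldS pools ranged from 5.82 to 6.72 over all days, with a spread at day 0 (6.26 and 5.82) wider than any WldS difference from day 0, and no WldS day was called. The WldS day 7 difference of 0.41 ± 0.18 (adjusted p = 0.102) was called with cyclic loess normalization (0.51, adjusted p = 0.0339). It also gained a call without the first WldS day 0 pool (0.63) or the second WldS day 7 pool (0.68), but not without the other pool of either day.

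Fosl1 encodes FRA1, a FOS family protein without the strong activation domain of FOS, which is itself a target of AP-1. It was called higher at day 3 in C57BL/6 and on no day in WldS. C57BL/6 signals were 5.41 and 5.29 at day 0, 8.56 and 7.62 at day 3, 6.02 and 5.96 at day 7, and 5.58 and 5.63 at day 14. The day 3 pools stood far above the rest, though they also differed from each other more than any other pair of this gene in C57BL/6. Their difference from day 0 was 2.74 ± 0.24 (adjusted p = 5.27e-07), or 6.68-fold, and because the day 0 mean of 5.35 lies below the brightness limit of 5.37, both are measured against a level too dim to be read well. By day 7 the signal had fallen by 2.10 ± 0.24 from day 3 (adjusted p = 5.07e-05), and the 0.64 ± 0.24 over day 0 missed the threshold (adjusted p = 0.0501), although the pools of days 0 and 7 did not overlap and the 95% interval ran from 0.13 to 1.16. That difference was called with only the arrays compared (adjusted p = 0.0014), with an intensity trend (0.0431), without either C57BL/6 day 3 pool (0.00815), without either WldS day 0 pool (0.0291) and without both arrays of high 3′ signal (0.0351). WldS pools read 5.17 and 5.76 at day 0, 5.78 and 5.70 at day 3, 5.76 and 6.02 at day 7, and 5.85 and 5.99 at day 14. None of the WldS differences was called, and the 95% interval at day 3 ran from -0.24 to 0.79.

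Fosl2 encodes FRA2, the other FOS protein that lacks the strong activation domain. Its course was slower than that of Fos. C57BL/6 signals were 9.16 and 9.26 at day 0, 10.50 and 10.37 at day 3, 11.28 and 11.06 at day 7, and 11.20 and 10.997 at day 14. It was higher by 1.22 ± 0.14 at day 3, 1.96 ± 0.14 at day 7 and 1.89 ± 0.14 at day 14, and it was the only one of the 10 genes called higher at day 7 than at day 3 (0.74 ± 0.14, adjusted p = 0.00289). WldS signals were 9.49 and 9.23, then 9.99 and 9.92, 10.48 and 10.16, and 10.36 and 10.58 in the same order of days. The WldS rises were 0.59 ± 0.14, 0.96 ± 0.14 and 1.11 ± 0.14, and the highest WldS pool, at day 14, stayed below every C57BL/6 pool of days 7 and 14. With the mean of both Fosl2 probe sets, the WldS day 3 rise was 0.31 (adjusted p = 0.0717).

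Of the JUN family, Junb, whose product pairs with FOS proteins but activates many AP-1 sites more weakly than JUN, had no called difference between the strains on any day. In C57BL/6 it read 6.47 and 6.12 at day 0, 7.98 and 7.96 at day 3, 7.05 and 7.28 at day 7, and 7.08 and 7.10 at day 14. In WldS it read 6.19 and 6.70, 8.00 and 7.98, 7.02 and 7.50, and 6.83 and 6.94. All 4 day 3 pools fell within 7.96 to 8.00, and day 3 was the top group of each strain. The rise at day 3 was 1.67 ± 0.18 in C57BL/6 and 1.54 ± 0.18 in WldS, followed by a fall of 0.80 ± 0.18 by day 7 in C57BL/6 (adjusted p = 0.00683; 0.054 without the first day 3 pool and 0.0751 without the first day 7 pool). At day 14 the difference from day 0 was 0.79 ± 0.18 in C57BL/6 (adjusted p = 0.00373, and 0.051 without the second day 0 pool) and 0.44 ± 0.18 in WldS (adjusted p = 0.0986). Jund, whose product is present in resting cells and is not strongly induced, lay between 11.10 and 11.51 on all 16 arrays. It was called in none of the 18 comparisons, and its largest difference from day 0 was -0.18 ± 0.14.

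Atf3 encodes a stress-induced leucine zipper protein that pairs with JUN proteins and is a common marker of nerve injury. C57BL/6 signals were 8.79 and 9.09 at day 0, 10.93 and 10.92 at day 3, 10.14 and 10.09 at day 7, and 10.25 and 10.27 at day 14. Each injured pool was above both uninjured pools, by 1.99 ± 0.12 at day 3 (3.97-fold, adjusted p = 1.04e-08), 1.18 ± 0.12 at day 7 and 1.32 ± 0.12 at day 14. WldS signals were 8.74 and 8.69 at day 0, 9.31 and 9.11 at day 3, 8.90 and 8.91 at day 7, and 9.27 and 9.20 at day 14. Their rise was 0.49 ± 0.12 at day 3 (1.41-fold, adjusted p = 0.00434) and 0.52 ± 0.12 at day 14 (adjusted p = 0.00579), with 0.19 ± 0.12 at day 7 not called. These smaller WldS calls were less secure: without the first WldS pool of day 3 the day 3 value was 0.40 (adjusted p = 0.0637), and without the first pool of day 14 the day 14 value was 0.48 (adjusted p = 0.0502). The highest injured WldS pool, 9.31, was below the lowest injured C57BL/6 pool, 10.09.

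Egr1 encodes a zinc finger factor that binds GC-rich sites and is a classic product of serum response factor activity. C57BL/6 pools read 10.05 and 9.06 at day 0, 10.29 and 10.30 at day 3, 10.11 and 10.36 at day 7, and 10.50 and 10.45 at day 14. The pools of day 0 differed by more than any later change, and the calls rested on the second of them. The differences from day 0 were 0.74 ± 0.23, 0.69 ± 0.23 and 0.92 ± 0.23 with all arrays, and 0.25, 0.19 and 0.43 (adjusted p = 0.298, 0.442 and 0.0826) without that pool. Loss of either day 3 pool also ended the day 3 call (adjusted p = 0.0695 and 0.0733), as did loss of either day 7 pool for day 7 (0.0591 and 0.192). In WldS the signals were 10.00 and 10.03, 10.04 and 10.32, 10.86 and 10.53, and 10.63 and 10.79. Days 7 and 14 did not overlap day 0 and were higher by 0.67 ± 0.23 (adjusted p = 0.0359) and 0.70 ± 0.23 (adjusted p = 0.0462). Both were close to the threshold: without either WldS day 0 pool the adjusted p was 0.106 and 0.079 at day 7 and 0.116 and 0.103 at day 14, without the first day 7 pool it was 0.197, and without either day 14 pool it was 0.109 and 0.17. The shared estimate of spread moved the day 14 call as well, with an adjusted p of 0.0565 to 0.0619 without any single injured pool of C57BL/6 or day 3 pool of WldS.

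Ier3 encodes a short-lived protein that modulates ERK signalling and cell survival. Against day 0 it was called at day 3 in C57BL/6 and in no other group. C57BL/6 signals were 9.15 and 9.01 at day 0, 10.21 and 10.00 at day 3, 9.20 and 9.16 at day 7, and 9.18 and 9.42 at day 14. The rise of 1.03 ± 0.12 at day 3 (2.04-fold, adjusted p = 1.06e-05) was followed by a fall of 0.93 ± 0.12 by day 7 (adjusted p = 0.000173). WldS signals were 9.38 and 9.30, 9.53 and 9.69, 9.25 and 9.10, and 9.15 and 9.21, and the difference of 0.27 ± 0.12 at day 3 was not called (adjusted p = 0.102). Both WldS day 3 pools nevertheless lay above all other WldS pools and below both C57BL/6 day 3 pools.

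Myc encodes a growth factor-induced regulator of ribosome production and the cell cycle. In C57BL/6 it read 6.93 and 6.69 at day 0, 8.24 and 8.08 at day 3, 7.44 and 7.44 at day 7, and 7.46 and 7.47 at day 14. It rose by 1.35 ± 0.13 at day 3 (2.55-fold, adjusted p = 9.49e-07), fell by 0.72 ± 0.13 by day 7 (adjusted p = 0.00133), and remained 0.66 ± 0.13 above day 0 at day 14. WldS pools read 6.68 and 6.79, 7.71 and 7.45, 7.42 and 7.63, and 7.26 and 7.28. The WldS rise was 0.85 ± 0.13 at day 3, 0.79 ± 0.13 at day 7 and 0.53 ± 0.13 at day 14 (adjusted p = 0.00787), and days 3 and 7 overlapped.

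**Figure D2:**
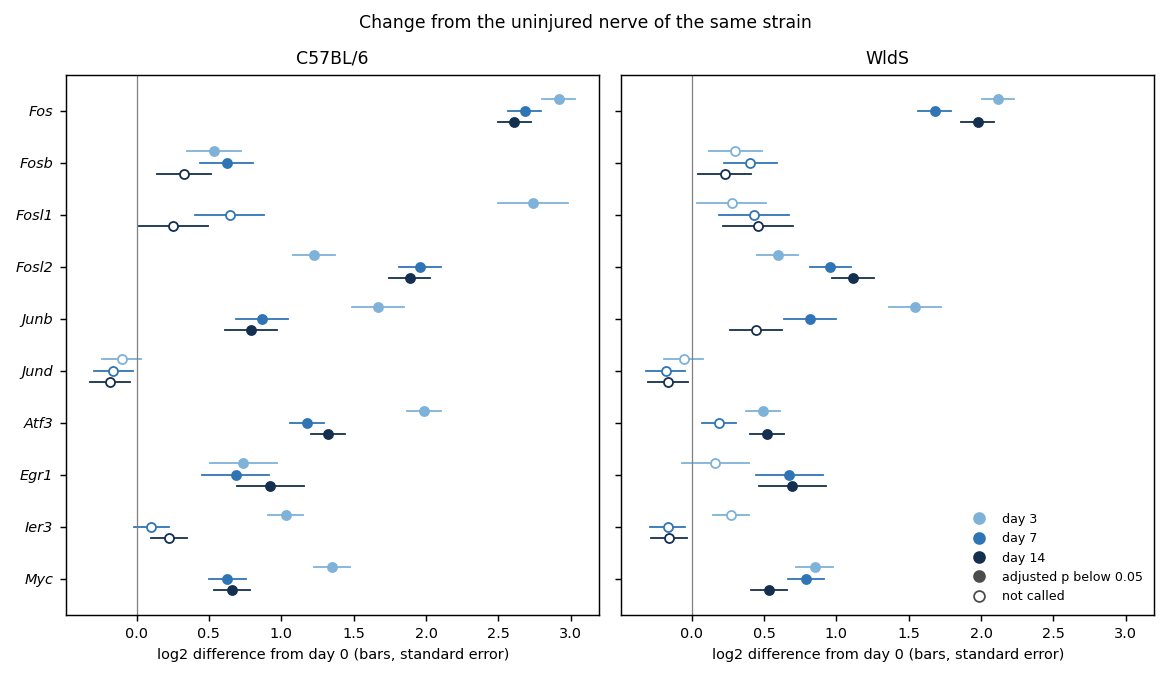
Log2 difference from day 0 of the same strain (horizontal axis) for each gene, with standard error bars, C57BL/6 on the left and WldS on the right, shaded by day, and filled where the adjusted p was below 0.05. At day 3 the C57BL/6 differences reach 2.92 for Fos and 2.74 for Fosl1, while WldS reaches 2.12 for Fos and 0.28 for Fosl1.

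Between neighbouring injured days most movement came from day 3 to day 7 in C57BL/6. In that step 6 of the 10 genes were called, Fosl2 higher and Fosl1, Junb, Atf3, Ier3 and Myc lower, beside 9.6% of all genes called higher and 10.7% lower (20.3% in all). Atf3 fell by 0.81 ± 0.12 (adjusted p = 0.000331). In WldS nerve the same step held 3 calls, all lower, beside 3.04% of genes higher and 3.58% lower (6.62%). They were Fos at -0.44 ± 0.11 (adjusted p = 0.0327), Junb at -0.73 ± 0.18 (adjusted p = 0.0257) and Ier3 at -0.44 ± 0.12 (adjusted p = 0.0482). Without 1 pool of day 3 or day 7 at a time, between 0 and 1 of these 3 calls was left, Junb being the one left without the second day 7 pool. The Ier3 call also ended without any single pool of C57BL/6 at days 0, 7 or 14 or of WldS at day 14, through the shared estimate of spread (adjusted p 0.0501 to 0.0757). From day 7 to day 14, limma called none of the 10 in either strain, with 767 genes called in C57BL/6 (5.27%, of which 2.48% higher and 2.79% lower) and 760 in WldS (5.23%, 1.61% higher and 3.62% lower). At an unadjusted p below 0.05 there were 2142 and 2676 genes. The largest of these 20 differences were -0.39 ± 0.24 for Fosl1 in C57BL/6 and -0.37 ± 0.18 for Junb in WldS.

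In uninjured nerve, none of the 10 genes was called different between the strains, in a comparison that called 33 genes in all (0.0825% higher and 0.144% lower, together 0.227%) and had 2549 genes at an unadjusted p below 0.05 in limma. The largest differences of the 10 were 0.46 ± 0.23 for Egr1 and 0.34 ± 0.11 for Fos, both WldS minus C57BL/6. At day 3, 5 of the 10 were lower in WldS and none higher, beside 4.62% of all genes lower and 4.82% higher (9.44% in all). These were Fosl1 at -2.35 ± 0.24 (5.10-fold, adjusted p = 1.52e-05), Atf3 at -1.72 ± 0.12 (3.29-fold, adjusted p = 2.37e-07), Myc at -0.58 ± 0.13 (adjusted p = 0.00862), Ier3 at -0.50 ± 0.12 (adjusted p = 0.0182) and Fos at -0.46 ± 0.11 (adjusted p = 0.0187). The pools of the strains did not overlap for any of the 5, which is no separate support, because these genes were picked by their calls. The share of all genes without overlap was not counted. The Fosl1 and Atf3 calls stood without any single array, whereas the other calls did not. Without 1 day 3 pool at a time, Fos had adjusted p values from 0.0765 to 0.145 for each of the 4 pools. Ier3 had 0.17 and 0.182 without the first pool of C57BL/6 or of WldS, and Myc had 0.0886 and 0.125 without the first C57BL/6 or the second WldS pool, with values of -0.49 and -0.45. Fosl2 was lower by 0.48 ± 0.14 in WldS, just short of the threshold (adjusted p = 0.0511). For Junb the difference at day 3 was 0.02, with a 95% interval of -0.37 to 0.41, and for Jund it was 0.08, with an interval of -0.21 to 0.37.

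At day 7 the genes lower in WldS were Fos (-0.66 ± 0.11, adjusted p = 0.00224), Fosl2 (-0.85 ± 0.14, adjusted p = 0.00196) and Atf3 (-1.22 ± 0.12, adjusted p = 1.3e-05), 3 of 10 beside 2.97% of all genes lower and 3.86% higher (6.83%). At day 14 they were Fosl2 (-0.62 ± 0.14, adjusted p = 0.0192) and Atf3 (-1.03 ± 0.12, adjusted p = 0.000133), 2 of 10 beside 3.55% lower and 2.9% higher (6.46%). The day 14 call for Fosl2 ended without either C57BL/6 day 14 pool (-0.52 and -0.72, adjusted p = 0.18 and 0.0516) or the first WldS pool (-0.51, adjusted p = 0.0975), and it was -0.23 with the mean of both probe sets. Over the mean of the 4 time points, Atf3 (-1.05 ± 0.06), Fosl1 (-0.51 ± 0.12), Fosl2 (-0.45 ± 0.07) and Fos (-0.27 ± 0.06) were called lower in WldS, 4 of 10 beside 9.72% of all genes lower and 7.32% higher (17%). Egr1 differed by 0.45 ± 0.23 and 0.24 ± 0.23 at days 7 and 14, positive values without a call.

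The interaction asks directly whether the change from day 0 differed between strains, and it is the WldS change minus the C57BL/6 change. At day 3 it was called for 4 of the 10 genes, all with a smaller rise in WldS, beside 2.15% of all genes called lower and 4.02% higher (6.16% in all). The values were -2.46 ± 0.34 for Fosl1 (adjusted p = 0.000491), -1.50 ± 0.16 for Atf3 (adjusted p = 6.32e-05), -0.80 ± 0.16 for Fos (adjusted p = 0.00842) and -0.76 ± 0.17 for Ier3 (adjusted p = 0.0183). Uncalled strain differences at day 0 enter these values: 0.34 ± 0.11 for Fos, 0.26 ± 0.12 for Ier3, 0.11 ± 0.24 for Fosl1 and -0.22 ± 0.12 for Atf3. Where the day 0 difference is positive, the interaction is more negative than the strain difference at day 3. At day 7 it was called for Fos (-1.0 ± 0.16, adjusted p = 0.00266), Fosl2 (-1.0 ± 0.20, adjusted p = 0.0133) and Atf3 (-0.99 ± 0.16, adjusted p = 0.00345), 3 of 10 beside 1.22% lower and 2.89% higher (4.11%). At day 14 only Atf3 was called (-0.80 ± 0.16, adjusted p = 0.0256), 1 of 10 beside 0.674% lower and 0.908% higher (1.58%). The Ier3 interaction was lost without the second C57BL/6 or first WldS day 0 pool or the first day 3 pool of either strain (-0.65 to -0.72, adjusted p 0.0581 to 0.0975), and the Fosl2 interaction at day 7 without the first day 0 pool of either strain, the first C57BL/6 day 7 pool or the second WldS day 7 pool (-0.84 to -0.96, adjusted p 0.0513 to 0.0736). With the mean of both Fosl2 probe sets that interaction was -0.49 (adjusted p = 0.162), and with only the arrays compared its adjusted p was 0.0583. The Atf3 interaction at day 14 was lost without the first day 0 pool of either strain or any day 14 pool (-0.65 to -0.84, adjusted p 0.0668 to 0.106). Junb had interactions of -0.13, -0.05 and -0.35, none of them called. The 95% interval at day 3 was -0.68 to 0.42, so with 2 pools per group a difference of rise within that range remains possible.

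**Figure D3:**
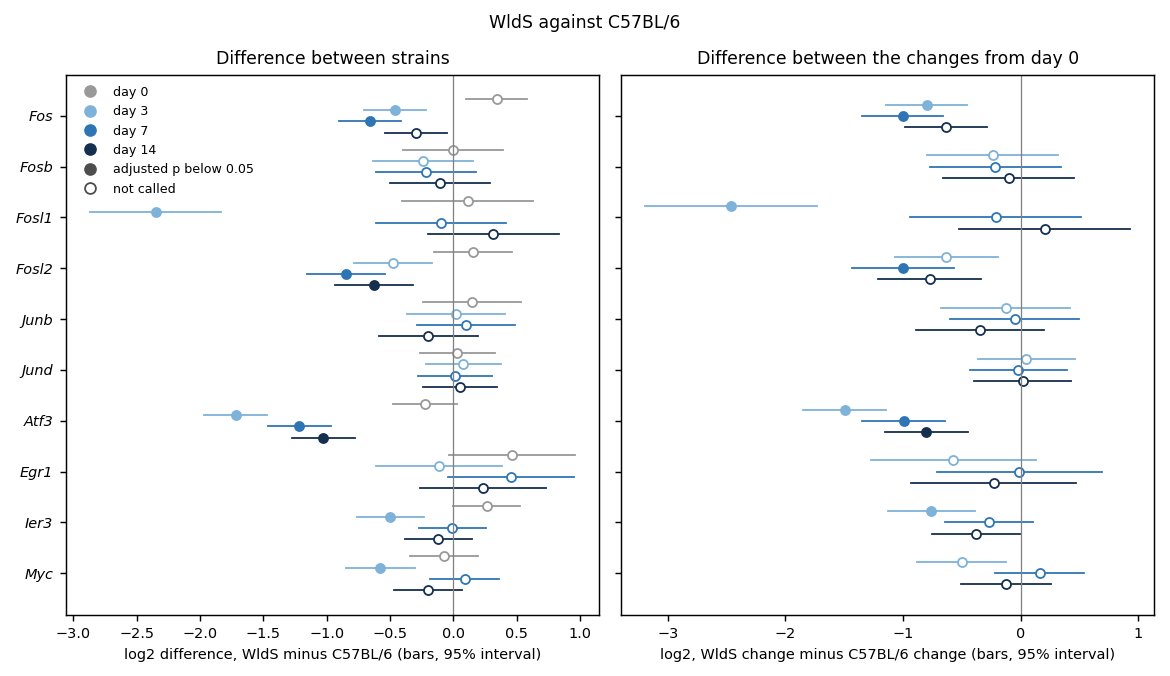
WldS minus C57BL/6 for each gene on the log2 scale, as the difference between strains on each day (left) and as the difference between their changes from day 0 (right), with 95% intervals and filled points where the adjusted p was below 0.05. Every filled point lies left of 0, from -2.35 for Fosl1 to -0.46 for Fos on the left, and none lies on the rows of Fosb, Junb, Jund or Egr1.

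The cell content of the nerve changed over the same days, and in bulk tissue a change in the number of cells of a type and a change in RNA per cell cannot be told apart. All 12 macrophage and monocyte markers tested were called higher at day 3 in both strains, with a mean log2 signal per pool of 8.88 to 9.19 at day 0 and 11.17 to 11.18 at day 3 in C57BL/6, and of 8.72 to 8.84 and 11.34 to 11.51 in WldS. Their summed linear signal was 45179 to 45685 at day 3 in C57BL/6 and 50312 to 53236 in WldS, 42598 to 44243 and 29393 to 35772 at day 7, and 38078 to 42596 and 22566 to 24016 at day 14. Between strains, none of the 12 was called at day 3, 2 were lower and 1 higher in WldS at day 7, and 5 were lower at day 14 (median -0.58). Itgam was below the brightness limit at day 0 in both strains and at day 14 in WldS. All 9 dividing cell markers tested rose at day 3 in both strains, with a mean log2 signal per pool of 6.49 to 6.62 at day 0 and 10.06 to 10.12 at day 3 in C57BL/6, and of 6.49 to 6.57 and 9.45 to 9.48 in WldS. In WldS, 6 of the 9 were lower than in C57BL/6 at day 3, 3 were lower at day 7 and 1 was higher at day 14, and 4 of the 9 had a called interaction at day 3, all negative. Bub1 was below the brightness limit at day 0. Among neutrophil markers 3 of 10 rose at day 3 in each strain, and S100a8 was below the limit at day 0 in both. Of 10 Schwann cell markers, which check the labelled tissue and were all above the limit in every group, 6 fell and 1 rose at day 3 in C57BL/6, and 8 fell in WldS. Strain differences were called for 7 of these 10 at day 3 (4 with more signal in WldS), 6 at day 7 (3 with more) and 1 at day 14, beside 9.44% of all genes at day 3. The interaction at day 3 was called for 6, positive for 4 of them. Of 10 endothelial markers, 1 was higher in WldS at day 3 and 4 at day 7. The other marker lists had these calls at day 3, in C57BL/6 and then in WldS: fibroblast and perineurial, 1 of 11 higher and 7 lower, then 1 and 2; endothelial, 0 of 10 higher and 1 lower, then 5 and 0; adipocyte, 5 and then 2 of 7, all lower; skeletal muscle, 2 of 4 lower in each; neuron and axon, 2 of 6 higher and 1 lower, then 1 and 2; T cell, 1 of 5 higher in each. Beside these counts, 22.6% of all genes were higher and 18.4% lower at day 3 in C57BL/6, and 20.8% and 15.2% in WldS. Between strains, 9.44%, 6.83% and 6.46% of all genes were called at days 3, 7 and 14. The part of any of these cell types in the changes of the 10 genes was not tested.

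The other genes of the AP-1 and ATF dimer families included some that rose and some that fell. Of the 21 tested, 9 were higher and 2 lower at day 3 in C57BL/6 and 7 higher and 3 lower in WldS, with medians of 0.27 and 0.15. The shares called were 52.4% and 47.6%, beside 41% and 36% of all genes. The largest called C57BL/6 differences were those of Cebpb (2.21 ± 0.18), a leucine zipper factor of inflammation, Jun (0.98 ± 0.12), the main FOS partner and injury regulator of Schwann cells, and Batf3 and Cebpd (0.78 each). Jun was also above day 0 in C57BL/6 at day 7 (1.33 ± 0.12) and day 14 (1.37 ± 0.12), with 0.95 ± 0.12 and 1.14 ± 0.12 in WldS. It was the only one of the 21 called between strains at day 3, at -0.55 ± 0.12 (adjusted p = 0.0104). At day 0 the Jun difference was -0.44 ± 0.12, with means of 9.42 in C57BL/6 and 8.98 in WldS, and was not called (adjusted p = 0.16), and its interaction at day 3 was -0.11 ± 0.18. None of the 21 had a called interaction on any day. Over the mean of the 4 time points 8 of the 21 were called lower in WldS and none higher, beside 9.72% of all genes lower and 7.32% higher. Jun led these 8 at -0.62 ± 0.06.

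Of the other immediate early genes, 21 of 38 rose at day 3 in each strain, with 3 lower in C57BL/6 and 5 in WldS and medians of 0.76 and 0.63. This was 63.2% and 68.4% called, beside 41% and 36% of all genes. In C57BL/6 the largest called differences were Gadd45a (3.24 ± 0.41), a growth arrest and DNA damage gene, Egr3 (2.29 ± 0.18), a relative of Egr1, Nr4a2 (-2.05 ± 0.15), an orphan nuclear receptor, and Pim1 (1.88 ± 0.27), a kinase. Egr3 continued to 4.52 ± 0.18 at day 7 and 4.18 ± 0.18 at day 14 in C57BL/6, and reached 3.02 ± 0.18 and 3.98 ± 0.18 in WldS. Its group means in C57BL/6 were 5.67, 7.96, 10.19 and 9.86. The interaction at day 3 was called for 8 of the 38, of which 5 were negative, including Gadd45a (-2.23 ± 0.58), Gadd45b (-1.46 ± 0.22) and Sgk1 (-1.43 ± 0.31), and 3 were positive, including Nr4a2 (1.46 ± 0.22). Over all genes it was called negative for 2.15% and positive for 4.02%.

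Of genes commonly described as targets of AP-1, 17 of the 25 tested were called higher at day 3 and none lower in C57BL/6, and 14 were higher and 1 lower in WldS, with medians of 1.42 and 1.15. Over all genes, 22.6% were higher and 18.4% lower in C57BL/6, and 20.8% and 15.2% in WldS. The list contains Fosl1 itself, and S100a8 and S100a9 are also neutrophil markers. Timp1, a metalloproteinase inhibitor, was higher by 5.09 ± 0.15 in C57BL/6 and 4.17 ± 0.15 in WldS. Tnc, a matrix glycoprotein, was higher by 3.71 ± 0.21 and 3.02 ± 0.21, Cd44, a hyaluronan receptor, by 3.43 ± 0.16 and 3.48 ± 0.16, and Ccl2, a monocyte chemokine, by 3.13 ± 0.18 and 2.90 ± 0.18. Between strains at day 3, 7 of the 25 were lower in WldS and 1 higher, beside 4.62% of all genes lower and 4.82% higher. Tnc differed by -1.30 ± 0.21 and the cytokine Lif by -0.98 ± 0.11. The interaction at day 3 was called for Fosl1, Lif (-1.08 ± 0.16) and Timp1 (-0.93 ± 0.21), all negative.

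Genes commonly described as MYC targets, mostly of ribosome production and translation, were higher at day 3 for 22 of 30 in C57BL/6, with 2 lower, and for 14 of 30 in WldS, with 4 lower. Over all genes, 22.6% were higher and 18.4% lower in C57BL/6, and 20.8% and 15.2% in WldS. The medians of the 30 were 0.76 and 0.40. In C57BL/6 the largest were the translation factor Eif4a1 (1.43 ± 0.14), nucleolin Ncl (1.34 ± 0.19), the spermidine synthase Srm (1.30 ± 0.18) and fibrillarin Fbl (1.25 ± 0.12). Between strains at day 3, 6 of the 30 were lower in WldS and none higher, beside 4.62% of all genes lower and 4.82% higher. Only 1 of the 30, Eif4a1, had a called interaction (-0.78 ± 0.20). In the step from day 3 to day 7 in C57BL/6, 11 of the 30 fell and none rose, beside 10.7% of all genes lower and 9.6% higher. A link of these changes to Myc was not tested.

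Among genes known to be induced with ATF3 in injured neurons or stressed cells, 4 of 13 were higher and 2 lower at day 3 in C57BL/6, and the same numbers held in WldS, a share of 46.2% called in each beside 41% and 36% of all genes. In C57BL/6 they were led by Gadd45a, the axonal growth protein Gap43 (1.27 ± 0.25), the small heat shock protein Hspb1 (-1.19 ± 0.22) and asparagine synthetase Asns (1.09 ± 0.16). The median of the 13 was 0.15 in C57BL/6 and -0.06 in WldS. Of the 10 MAP kinase phosphatases, which switch off the kinases that induce immediate early genes, 4 were higher and 2 lower at day 3 in C57BL/6, and 2 were higher and none lower in WldS. That is 60% and 20% called, beside 41% and 36% of all genes.

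**Figure D4:**
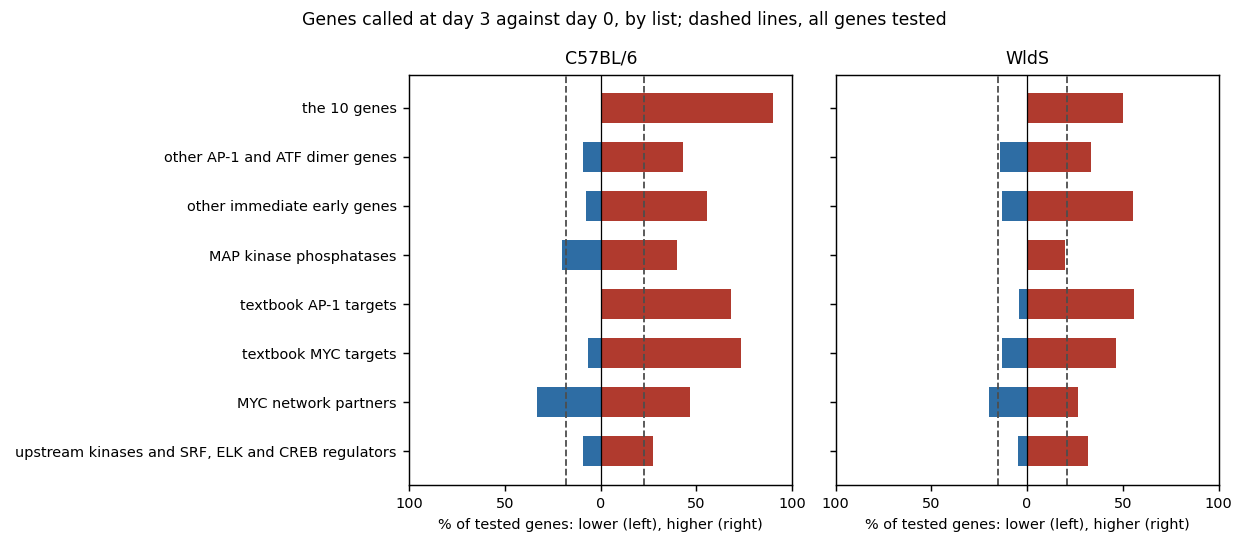
Share of the tested genes of each list called higher (red, to the right) or lower (blue, to the left) at day 3 against day 0, in percent, for C57BL/6 and WldS. Dashed lines mark the share over all genes tested, 22.6% higher and 18.4% lower in C57BL/6 and 20.8% and 15.2% in WldS; the bar of the 10 genes reaches 90% in C57BL/6 and 50% in WldS.

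For 3 of the 10 genes the platform has a second probe set. For Fosl2 and Jund it was much dimmer, with means over the arrays of 6.26 beside 10.25 and 5.65 beside 11.30. The second Fosl1 probe set, at 5.58, was only somewhat dimmer than the one in use, at 6.01. At day 0 it was the brighter, at 5.54 beside 5.35 in C57BL/6 and 5.69 beside 5.46 in WldS. None of the 3 was called in any of the 18 comparisons. The second Fosl1 probe set was higher by 0.30 ± 0.11 at day 3 in C57BL/6 (adjusted p = 0.063), where the probe set in use was higher by 2.74. Between strains at day 3 it gave -0.21 ± 0.11, where the probe set in use gave -2.35. Its interaction at day 3 was -0.37 ± 0.15, beside -2.46. The second Fosl2 probe set gave -0.12 at day 3 in C57BL/6, so the Fosl1 and Fosl2 values above rest on 1 probe set each.

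The genes whose profile over the 16 arrays was most like each of the 10 were found by Pearson's correlation among all genes tested, as a description without a p-value. All correlations share the same 16 arrays and the common step from uninjured to injured nerve. Fos was most like Top2a (r = 0.974) and Mki67 (r = 0.972), both dividing cell markers, and Nepro (r = 0.971). Fosl1 was most like Tmem150a (0.943), the growth factor Gdnf (0.940) and the cytokine Clcf1 (0.939), and Fosl2 most like Pde8a (0.964), Alkbh1 (0.963) and Hexa (0.962). Junb was closest to B4galnt1 (0.984), the urokinase receptor Plaur (0.959) and the IgG receptor Fcgr2b (0.951). For Atf3 the closest were Ucn2 (0.950), Pvr (0.946) and Tmod1 (0.934). Myc was closest to Ubash3b (0.971), Rcc1 (0.954) and Fbl (0.954), the last of them in the list of MYC targets. Ier3 was closest to Rbks (0.927), Prtn3 (0.926) and Selp (0.901), and Fosb to Nars (0.893), Aplnr (0.883) and Nvl (0.883). The closest genes of Jund (Slfnl1, 0.868) and Egr1 (Col1a1, 0.796) were less like them.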

How the data were processed

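Values are the authors' deposited log2 signals per probe set, already normalized (array medians 6.42 to 6.49). The submitters' processing notes list Partek, limma, RMA and GCOS 1.4 and give no role for them. Of 45101 probe sets, 64 controls were left out, 34945 had 1 gene symbol in the platform table, 932 several and 9160 none. The 8 group means were fitted over all 16 arrays by limma 3.58.1 (lmFit, eBayes; R 4.3.3; 8 residual and 5.82 prior degrees of freedom) and tested two-sided in 18 contrasts, with Benjamini-Hochberg adjustment over 14545 genes per contrast. Precision is limited by the number of arrays. The script was tested on simulated data. The 10 genes and the 18 other gene lists were chosen with earlier results of these data known, so list counts are descriptions and no set test was run. Named genes besides the 10 are up to 4 called genes of a list with the largest difference in the comparison described, or the 3 most alike by correlation, clone names passed over. Where a later sentence follows such a gene into another comparison, that was chosen after its values were seen. Alternatives were 3 normalizations, the dim filter, the mean of a gene's probe sets, only the arrays compared, an intensity trend, a replicate block, and leaving out arrays. Array pairs of a group differed in nearly all values, so none was a duplicate. Same-numbered arrays of different groups did not deviate together.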

Additional observations from a re-analysis of the deposited data

Results flagged for a closer look

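In 8 cases the change from day 0 differed between the strains by limma's test of the interaction, each with the smaller change in WldS. At day 3 these were Fosl1 (-2.46), Atf3 (-1.50), Fos (-0.80) and Ier3 (-0.76). At day 7 they were Fos (-1.0), Fosl2 (-1.0) and Atf3 (-0.99), and at day 14 Atf3 (-0.80). Groups of 2 arrays are too small to look for single outlying arrays.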

How the results depend on the processing

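Over the 18 comparisons there were 68 calls among the 10 genes, and 43 of them held under every alternative. The share of calls over all genes that held under these alternatives is not given here. Of 1761 alternative fits of these calls, 107 ended the call and 0 turned its direction. Fits on only the arrays of the groups compared gave 3 calls in place of 5 for WldS day 14 against day 0, 0 in place of 3 for WldS day 7 against day 3, 1 in place of 0 for C57BL/6 day 14 against day 7 (Fosl1), 2 in place of 4 for the interaction at day 3 and 0 in place of 1 at day 14. These fits have fewer residual degrees of freedom. Without both arrays of highest 3′/5′ index, the counts were 3 for WldS day 14 against day 0 and 0 for the interaction at day 14. Quantile normalization gave 1 call for WldS day 14 against day 7 (Atf3), and quantile normalization and the mean of all probe sets each gave 1 in place of 2 between strains at day 14 and 2 in place of 1 for the interaction at day 14. The cause of these shifts was not tested.

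Leaving out 1 array at a time gave 3 to 5 calls for WldS day 14 against day 0, 0 to 3 for WldS day 7 against day 3, 2 to 6 between strains at day 3, 1 to 2 between strains at day 14 and 0 to 2 for the interaction at day 14. Where this leaves 1 array in a group, that array is assumed to vary like the other groups.

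The replicate numbers did not pair the arrays: over 28 pairs of groups the correlation of same-numbered deviations ran from -0.51 to 0.21, with 3 above 0.1. With the replicate block, Egr1 in WldS at day 14 (adjusted p = 0.0572) and Ier3 in WldS from day 3 to day 7 (0.0684) lost their calls, Fosl2 between strains at day 3 (0.0473) gained one, and the other calls of the 10 genes stood.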

Other observations

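The kinases and regulators upstream of immediate early genes (MAP kinases, RSK kinases and the SRF, ELK and CREB factors) were called at day 3 in about the same share as all genes. Of the 22 tested, 6 were higher and 2 lower at day 3 in C57BL/6 and 7 higher and 1 lower in WldS, 36.4% in each beside 41% and 36% of all genes, with medians of 0.19 and 0.18, and none differed between strains at day 3. The MYC network of MAX partners and antagonists moved in both directions at day 3, with 7 of 15 higher and 5 lower in C57BL/6 and 4 higher and 3 lower in WldS. This was 80% and 46.7% called, beside 41% and 36% of all genes. Mxd3, an antagonist, was higher by 1.55, whereas Mxi1, another antagonist, was lower by 1.42 and Mycn, a relative of Myc, was lower by 1.02 in C57BL/6.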
